A study of Mus musculus with 8 samples.

Results

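AMP-activated protein kinase (AMPK) was examined through its 7 subunit genes, *Prkaa1*, *Prkaa2*, *Prkab1*, *Prkab2*, *Prkag1*, *Prkag2* and *Prkag3*, and 2 kinases that act on it, *Stk11* and *Camkk2*. Every probe that the array names for one of these 9 genes, of 37074 gene names on the array, was taken, which gave 19 of the 56605 probes that are not controls. The arrays came from the BAT of 12-week-old C57BL/6J mice, 18 h after an intravenous injection of 100 μL of saline (Co mice, n = 4) or of sonicated *P. gingivalis* in the same volume (Pg mice, n = 4). The dose is 100000000 CFU in the study's methods and is printed as 108 CFU in the sample labels. No transgene or deletion is named in the labels of either group, and the bacteria had been broken up by sonication. The family was chosen by a measured value, the lower signal of a *Prkaa2* probe in Pg mice in an earlier pass through these data, so the Pg and Co values of *Prkaa2* are given as a description, without a test.

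AMPK is a heterotrimer that senses a fall in cellular energy. The α subunits carry the kinase, the β subunits hold the complex together and bind glycogen, and the γ subunits bind AMP, ADP and ATP. LKB1, the product of *Stk11*, phosphorylates the activation loop of the α subunit, and CaMKK2 does so in response to calcium. Active AMPK phosphorylates acetyl-CoA carboxylase and other enzymes, which slows lipid synthesis and favours fatty acid oxidation. In brown fat it is known for its part in thermogenesis and mitochondrial upkeep, and in skeletal muscle for its response to exercise, where the γ3 subunit is characteristic of fast glycolytic fibres.

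Each of the 19 probes is 60 bases long and was spotted once. Most of the results below turn on pairs of probes that read the same gene at different places, so the sequences of these probes are given first, on mm9 as in the array's annotation. The first *Prkaa2* probe lies at base 1464 of its transcript, at chr4:104708932-104709359 on the minus strand, and its 60 bases span 428 bases of the genome, so that 368 bases are skipped between its ends and it reads spliced RNA. The second lies at base 7844 of the same transcript, at chr4:104702552-104702611, and its first 30 bases are shown. The *Prkab1* probe lies at base 940, at chr5:116464650-116464709 on the minus strand.
*Prkaa2*, A_55_P2745129: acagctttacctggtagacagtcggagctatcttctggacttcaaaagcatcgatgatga
*Prkaa2*, A_55_P2506730: gtgctgagaatgtttaagacacagtttcac
*Prkab1*, A_55_P2182700: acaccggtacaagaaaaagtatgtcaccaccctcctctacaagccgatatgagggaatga

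The pair of *Camkk2* probes shown next, both on the minus strand, starts from the same piece of the gene. The spliced probe covers chr5:123206615-123207579 and skips 905 bases, and the other covers chr5:123207552-123207611 without a gap. Capitals mark the 12 bases that both hold, which begin at the same base of the genome in both probes, 123207579. After them the spliced probe goes on into sequence beyond the skipped bases, and the unspliced probe reads 16 further bases of the genome.
*Camkk2*, A_55_P2737194: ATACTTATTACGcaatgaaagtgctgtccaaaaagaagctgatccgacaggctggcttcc
*Camkk2*, A_55_P2730871: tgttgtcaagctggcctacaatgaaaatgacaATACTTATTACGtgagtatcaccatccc

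No run of over 9 bases was shared between probes of different genes of the family. The probes were not compared with the transcripts of the paralogues, so whether a probe also reads a paralogue was not tested. Exon and UTR positions of the probes were not analysed here.

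The values below are log2 of the quantile-normalized processed signal. A probe was tested when it was well above background, as marked by the scanner software, on at least 4 of the 8 arrays, and a DEG had a q (Benjamini-Hochberg, limma, over all 33819 probes tested) under 0.1 and a fold change above 1.5. Among all probes tested, 546 were DEGs, with 440 lower and 106 higher in Pg mice. This split moved with the signal and the scaling used. Lower and higher DEGs numbered 28 and 66 with normexp on the mean signal, and 33 and 75 with the median signal. They numbered 46 and 60 in the authors' table, 7 and 20 when arrays were left unnormalized, and 146 and 137 with 75th percentile scaling. All 8 arrays were on 1 slide and 1 scan, with the Co arrays in the first row and the Pg arrays in the second, so that row and group cannot be told apart. A Co array had 34760 to 35831 probes marked well above background, and a Pg array had 31132 to 34063.

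The tissue label was checked against marker genes. *Ucp1*, which defines brown adipocytes, was well above background on none of the arrays, nor were *Elovl3*, *Bmp8b* and *Slc27a2*. *Kcnk3* and *Adrb3* were well above it on some arrays only. The other 14 of 20 brown adipocyte genes, *Cidea* among them (13.16 to 13.52), were well above it on all 8. Of these, *Cpt1b* and *Ppargc1a* are also in the list below of transcripts that AMPK activation raises in muscle. The count of 14 thus cannot tell brown fat from muscle. All 20 skeletal muscle genes were well above background on all 8 arrays, with summed signals of 4503000 to 4723000 in Co and 4369000 to 4703000 in Pg mice. *Adipoq*, the adipokine adiponectin, was at 9.61 to 11.31 in Co and 9.84 to 11.09 in Pg mice. *Acta1*, the actin of skeletal muscle, was at 18.41 to 18.57. As at the upstream *Prkaa2* probe, every Pg array lay below every Co array for 3 of the 20 muscle genes, and for 8.66% of all genes by their brightest probe. The median difference of the muscle genes was -0.03, with 5 above 0, *Myh7* (0.08) the highest. Quantile normalization fixes the values of the very brightest probes, so that *Tnni2* and *Tnnt3* had an SD of 0 in Pg mice. This median therefore cannot show whether muscle content was alike in the groups. *Atp2a1*, the calcium pump of fast fibres, was 16.15 ± 0.09 (SD, n = 4) in Co and 15.71 ± 0.06 in Pg mice (adjusted p = 0.0411 from limma), *Ckm*, the muscle creatine kinase, differed by -0.15 (adjusted p = 0.186) and *Mb*, myoglobin, by -0.15 (adjusted p = 0.149). Of the markers of other cells, none of the neutrophil or macrophage genes and 1 of 8 endothelial genes had a q under 0.1, and none was a DEG. Of the neutrophil genes, all 7 tested were above 0 (median 0.18, against 47.7% of all genes above 0), with *S100a8* at 2.16 and *S100a9* at 2.04 (adjusted p = 0.132 and 0.195 from limma), and both overlapped between the groups through Pg replicate 3. Of the macrophage genes, 8 of 10 were above 0 (median 0.30), with summed signals of 34980 to 41010 in Co and 33650 to 53950 in Pg mice. Of the endothelial genes, 6 of 8 were above 0 (median 0.11), and *Kdr*, a receptor of VEGF, was 11.40 ± 0.16 (SD, n = 4) in Co and 11.97 ± 0.17 in Pg mice, without overlap (adjusted p = 0.0573 from limma). *Pecam1*, an adhesion molecule of endothelial cells, lay the other way without overlap (-0.20, adjusted p = 0.151 from limma), and *Tek*, the angiopoietin receptor, was at -0.14. The summed signals were 40520 to 50870 in Co and 48000 to 55590 in Pg mice for the neutrophil genes, of which *Ngp* was above background on no array, and 12200 to 15760 and 14920 to 16840 for the endothelial genes. The part of muscle, neutrophil, macrophage or endothelial content in the AMPK values was not tested. The AMPK probes were thus read in RNA that holds muscle transcripts, and fewer cells of a type and less RNA per cell cannot be told apart in such bulk RNA.

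All 9 genes had a probe that was well above background on all 8 arrays, and 15 of the 19 probes were. Of the 17 probes that passed the filter, 2 met the thresholds of a DEG, both lower in Pg mice. Among all probes tested, 1.61% were DEGs, 1.3% lower and 0.313% higher in Pg mice. Nothing is read from this count or those that follow, as they hold probes chosen by their values or passed through the Co arrays. One is the *Prkaa2* probe that chose the list, and the other is a *Camkk2* probe that was well above background on no Pg array and passed the filter only through the Co arrays. Both are described below without a test. At a q under 0.1 with any fold change, 3 probes were lower, against 6% of all probes, and none was higher, against 1.82% (7.82% in either direction). The third is a *Prkab1* probe. At an unadjusted p under 0.05 there were also 3, all lower, against 16% of all probes. The 4 Pg values lay wholly apart from the 4 Co values for 3 probes, all lower in Pg mice. Of all probes, 15.8% lay so apart, 11% lower and 4.83% higher. The fitted difference was below 0 for 12 of the 17 probes and for 57.7% of all probes. The median difference was -0.05 for the 17 probes and -0.04 for all probes.

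**Figure D1:**
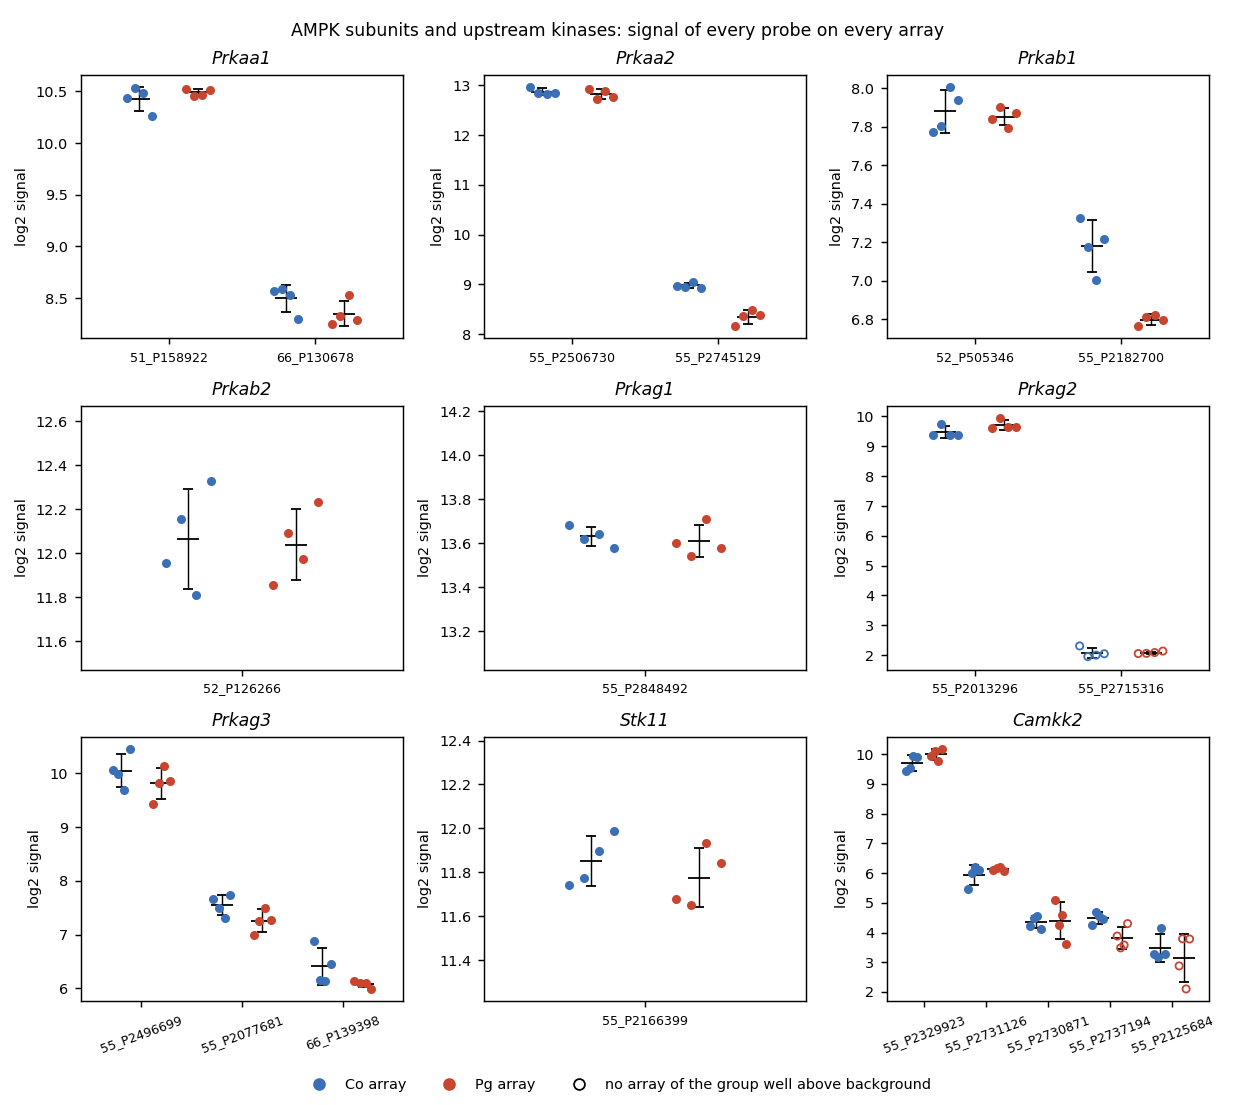
Log2 signal of every probe of the 9 genes on every array (blue, Co; red, Pg; each group n = 4), with a panel per gene and its probes named on the x axis without their leading A; bars show the mean and SD. The *Prkaa2* probe 55_P2745129 and the *Prkab1* probe 55_P2182700 are lower on every Pg array than on any Co array, while the other probe of each of these genes overlaps between groups. Panels have their own y axes, and levels of different probes are not comparable.

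The catalytic subunits come first. *Prkaa2* encodes α2, the catalytic subunit prominent in muscle. At its upstream probe, A_55_P2745129, the signal was 8.98, 8.95, 9.06 and 8.94 on the Co arrays and 8.16, 8.38, 8.49 and 8.39 on the Pg arrays. Every Pg array lay below every Co array, and Pg replicate 1 was the lowest. The mean was 8.98 ± 0.05 (SD, n = 4) in Co and 8.35 ± 0.14 in Pg mice, a difference of -0.63, which is a 1.54-fold lower signal in Pg mice and close to the threshold of 1.5. Without Pg replicate 1 the difference was -0.56, under a fold change of 1.5, and without Co replicate 3 it was -0.60.

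The downstream *Prkaa2* probe, A_55_P2506730, differed less. Its signal was 12.97, 12.84, 12.82 and 12.85 on the Co arrays and 12.92, 12.72, 12.89 and 12.77 on the Pg arrays, with the groups overlapping. The mean was 12.87 ± 0.07 (SD, n = 4) in Co and 12.82 ± 0.09 in Pg mice, a difference of -0.05. It was -0.01 without Pg replicate 2 and -0.08 without Pg replicate 1.

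Taken within each array, where a scaling factor of the array cancels, the upstream probe minus the downstream probe of *Prkaa2* was -4.00, -3.88, -3.77 and -3.91 in Co mice. It was -4.76, -4.34, -4.40 and -4.38 in Pg mice. The groups did not overlap, with a mean of -3.89 ± 0.10 (SD, n = 4) in Co and -4.47 ± 0.19 in Pg mice, a shift of -0.58. Which of the 2 probes follows the amount of *Prkaa2* RNA was not tested.

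Shifts in this direction were common on the array. Over 2461 transcripts with probes at least 1000 bases apart, the Pg minus Co change of the upstream probe was below that of the downstream probe for 65.9%, with a median of -0.13. The shift was as low as that of *Prkaa2* or lower for 6.87% of them. Nothing is read from this share, as the upstream *Prkaa2* probe was chosen for its lower Pg signal. When the dimmest probe was set against the brightest in the same transcripts, the median was -0.14 and 70.1% were below 0. The part of probe position and of signal level in the *Prkaa2* values was not tested.

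In the authors' own table of log2 values, *Prkaa2* has a single entry, which carries the name of the downstream probe. Rebuilding the table from the scanner output, with the probes of an accession averaged, gave all 28067 entries to within 0.0031, so that this entry is the mean of both probes. It was 10.91 ± 0.04 (SD, n = 4) in Co and 10.59 ± 0.05 in Pg mice, a difference of -0.31 that belongs to neither probe. Of the 28067 entries, 4958 are such means, among them those of *Prkab1* (2 probes) and *Prkag3* (3 probes).

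*Prkaa1* encodes α1, the more widely expressed catalytic subunit. Its brighter probe, A_51_P158922, was at 10.44, 10.54, 10.48 and 10.27 in Co and 10.52, 10.46, 10.47 and 10.52 in Pg mice. The groups overlapped, and the difference was 0.06 (95% interval -0.10 to 0.22, adjusted p = 0.63 from limma). It was 0.01 without Co replicate 4 and 0.10 without Co replicate 2. The dimmer probe lay upstream, of another transcript record, and differed by -0.15 (adjusted p = 0.377 from limma). Neither probe passed the test. The brightest *Prkaa2* probe, which is the downstream one, minus the brightest *Prkaa1* probe ranged from 2.30 to 2.58 in Co and from 2.25 to 2.42 in Pg mice. By these probes the balance of the α subunits overlapped between the groups. The upstream *Prkaa2* probe was not used for it, so this holds for the downstream probe only.

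Of the regulatory β subunits, *Prkab1* encodes β1, and its probe at base 940, A_55_P2182700, read 7.33, 7.17, 7.004 and 7.22 in Co mice. It read 6.76, 6.81, 6.82 and 6.79 in Pg mice, all below the lowest Co array. The log2 signal fell by 0.38 (standard error, SE, 0.07, adjusted p = 0.0568 from limma), a 1.30-fold lower signal that did not reach the fold change of a DEG. The difference was -0.20 with normexp on the mean signal, -0.17 with the median signal and -0.25 without normalization. The adjusted p was above 0.1 in 6 of the 8 fits that left out an array (0.0769 to 0.127 over the 8), 0.14 with the median signal, 0.111 with 75th percentile scaling and 0.303 without normalization.

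The downstream *Prkab1* probe, A_52_P505346 at base 1493, was at 7.77, 7.80, 8.01 and 7.94 in Co and 7.84, 7.90, 7.80 and 7.87 in Pg mice. The difference was -0.03 (95% interval -0.19 to 0.13, adjusted p = 0.839 from limma), and its sign turned in 4 of 17 alternatives. Within an array, the upstream minus the downstream probe was -0.70 ± 0.23 (SD, n = 4) in Co and -1.05 ± 0.06 in Pg mice, and the groups overlapped. *Prkab2*, which encodes β2, the β isoform of muscle, had 1 probe at 12.06 ± 0.23 in Co and 12.04 ± 0.16 in Pg mice (difference -0.02, 95% interval -0.32 to 0.28, adjusted p = 0.928 from limma).

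The nucleotide-binding γ subunits had 5 tested probes, and 0 had a q under 0.1 by limma, against 7.82% of all probes. At an unadjusted p under 0.05 the count was also 0, against 22.8% of all probes. Nothing is read from these counts, as the probes are few. *Prkag1*, the γ1 subunit, was the steadiest of the family, at 13.68, 13.62, 13.64 and 13.58 in Co and 13.60, 13.54, 13.71 and 13.58 in Pg mice. Its difference was -0.02 (95% interval -0.16 to 0.11, adjusted p = 0.856 from limma), so a change beyond these limits was not seen at this probe.

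*Prkag2*, the γ2 subunit, was at 9.38, 9.76, 9.36 and 9.39 in Co and 9.62, 9.95, 9.64 and 9.66 in Pg mice at probe A_55_P2013296. Replicate 2 was the highest array of each group, and the other arrays lay at 9.36 to 9.39 in Co and 9.62 to 9.66 in Pg mice. The difference was 0.25 (95% interval -0.03 to 0.52, adjusted p = 0.26 from limma), which did not pass the test. *Prkag2* minus *Prkag1* on each array was -4.16 ± 0.21 (SD, n = 4) in Co and -3.89 ± 0.21 in Pg mice, and the groups overlapped. A second *Prkag2* probe, A_55_P2715316, was at background on all 8 arrays and was not tested.

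*Prkag3*, the γ3 subunit of fast muscle fibres, was read by 3 probes, all well above background on all 8 arrays. The most downstream and brightest, A_55_P2496699, was at 10.06, 9.99, 9.69 and 10.45 in Co and 9.44, 9.82, 10.13 and 9.86 in Pg mice, with the groups overlapping. The 3 probes differed by -0.24, -0.29 and -0.33 from the 3' end upwards (adjusted p = 0.497, 0.238 and 0.27 from limma), and none passed the test. The groups did not overlap at the most upstream probe, A_66_P139398, though its lowest Co value of 6.14 and highest Pg value of 6.14 differed by less than 0.01. The difference of A_55_P2496699 was -0.10 without Co replicate 4 and -0.11 without Pg replicate 1, and that of A_66_P139398 was -0.17 without Co replicate 1. The within-array differences of the dimmer probes to the brightest shifted by -0.05 and -0.09, and the groups overlapped.

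*Prkag3* was also set against *Myh4*, the myosin of the fastest fibres. The brightest *Myh4* probe ranged widely, from 13.38 to 16.97 in Co and from 11.38 to 17.07 in Pg mice, with the lowest values on Pg replicate 1 and Co replicate 3. The other *Myh4* probes, not used here, ranged less, from 6.54 to 7.66 and from 10.29 to 11.46 over the 8 arrays. The 2 brighter *Prkag3* probes were lowest in their groups on the same 2 arrays, whereas the most upstream probe was highest among the Pg arrays on Pg replicate 1. Over the 8 arrays Pearson's r of A_55_P2496699 with *Myh4* was 0.76 (exact permutation test, two-sided, p = 0.0248). None of 13 such relations, of the probes well above background on all 8 arrays other than those of *Prkaa2*, passed Benjamini-Hochberg adjustment (lowest adjusted p = 0.248). Spearman's rho was 0.52 (exact permutation p = 0.197, 0.869 adjusted), and r was 0.24 without Pg replicate 1 and Co replicate 3, so this r rests on these 2 arrays. The second *Prkag3* probe had an r of 0.73 (exact permutation p = 0.0382, 0.248 adjusted) and the third an r of 0.22 (exact permutation p = 0.618, 0.777 adjusted). Within groups, r of the first probe was 0.71 in Co and 0.86 in Pg mice, and r of the third was 0.31 and -0.14, with 4 arrays each. The part of fibre content in the *Prkag3* values was not tested.

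**Figure D2:**
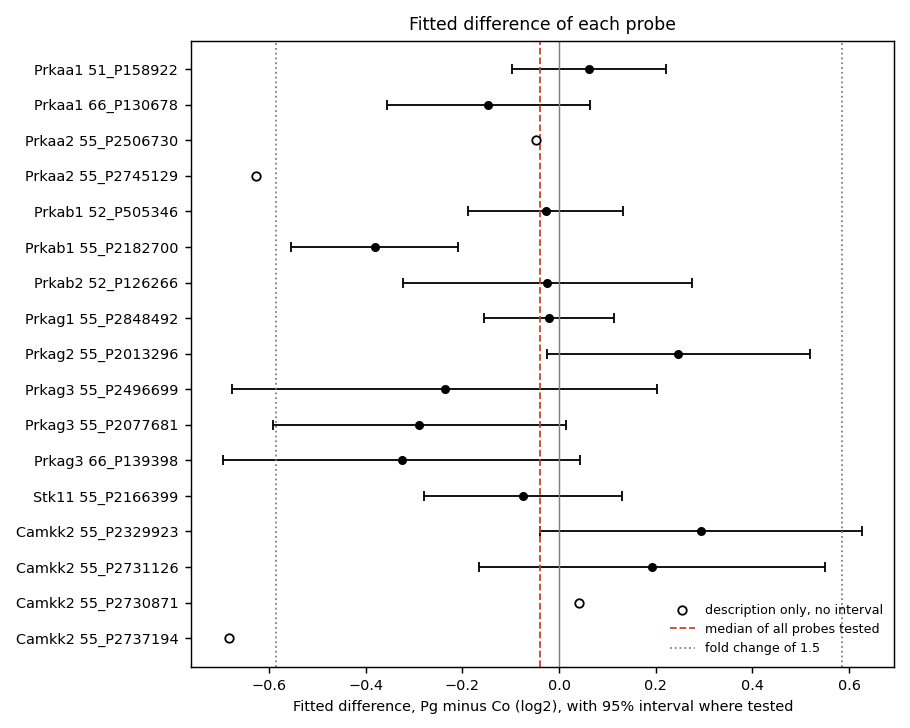
Fitted difference of 17 probes, Pg minus Co on the log2 scale, with the 95% interval from limma (n = 4 per group); open points, of *Prkaa2* and of the 2 *Camkk2* probes not above background on all arrays, are a description without interval; the dashed line is the median of all probes tested, -0.04, and the dotted lines are a fold change of 1.5. The interval of the upstream *Prkab1* probe lies below 0, and the others include 0.

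Of the upstream kinases, *Stk11* showed no change that passed the test. It was at 11.74, 11.78, 11.90 and 11.99 in Co and 11.68, 11.65, 11.93 and 11.84 in Pg mice. The difference was -0.07 (95% interval -0.28 to 0.13, adjusted p = 0.652 from limma), and with an array left out it ranged from -0.13 (Pg replicate 3) to -0.03 (Co replicate 4).

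*Camkk2* had 5 probes, of which 2 were well above background on all 8 arrays. The brightest, A_55_P2329923 near the 3' end, was at 9.43, 9.52, 9.93 and 9.92 in Co and 9.94, 10.11, 9.77 and 10.16 in Pg mice. It differed by 0.29 (95% interval -0.04 to 0.63, adjusted p = 0.27 from limma), without passing the test. A second probe, A_55_P2731126, differed by 0.19 (adjusted p = 0.5 from limma), and by 0.03 without Co replicate 1.

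The spliced *Camkk2* probe shown above, A_55_P2737194, lay near background. It was at 4.25, 4.70, 4.57 and 4.46 on the Co arrays, all well above background, and at 3.88, 3.48, 3.58 and 4.30 on the Pg arrays, none of which was. The difference of the means was -0.68, and the groups overlapped through Pg replicate 4. No fold change or test is given. As an upper limit for each Pg array, the higher of its lowest signal among probes well above background and the probe's own signal was taken, and these limits averaged above the Co mean. The probe passed the filter only through the Co arrays. The difference shrank to -0.14 with normexp on the mean signal, -0.18 with the median signal and -0.29 in the authors' table, and the DEG thresholds were met again only without Pg replicate 4 and with the outlier spots kept.

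The unspliced *Camkk2* probe that holds the same 12 bases, A_55_P2730871, was well above background on 4 Co arrays and 1 Pg array. It was at 4.23, 4.50, 4.56 and 4.12 in Co and 5.11, 4.26, 4.60 and 3.62 in Pg mice, with a difference of the means of 0.04, given without a test since the probe passed the filter through the Co arrays. Its groups overlapped, and whether it differs from the spliced probe was not tested. The last *Camkk2* probe, A_55_P2125684, was well above background on 1 Co array and was not tested.

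The dimmer probes of a gene were set against its brightest probe in their Pg minus Co change. There were 8 such differences, in *Prkaa1*, *Prkaa2*, *Prkab1*, *Prkag3* and *Camkk2*. One is that of *Prkaa2*, and 2 rest on *Camkk2* probes that were not above background on all Pg arrays. The other 5 were below 0, from -0.35 to -0.05, as were 70.1% of the transcripts in the comparison of dimmest and brightest probes above. The groups did not overlap for 2 of them, from which nothing is read, as one is the upstream *Prkaa2* probe that chose the family and the other the spliced *Camkk2* probe, not above background in Pg mice. When the dimmer was set against the brighter of the end probes of the 2461 transcripts, the Pg arrays lay wholly below the Co arrays for 19.3%. The *Camkk2* differences share 1 bright probe, as do those of *Prkag3*, so the 8 values are not independent.

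**Figure D3:**
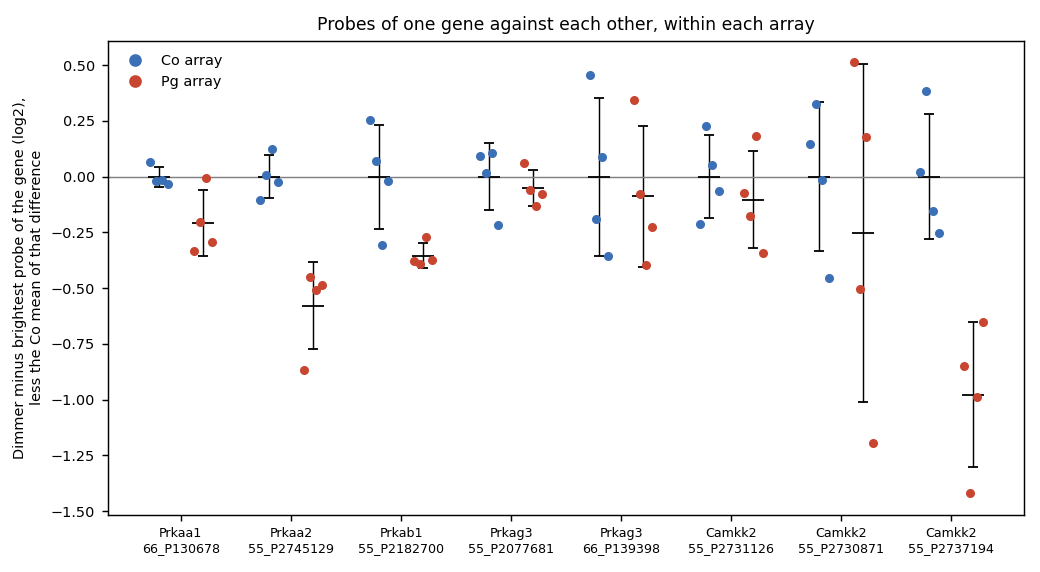
Dimmer minus brightest probe of the same gene on each array (log2, blue Co, red Pg, n = 4 each), less the Co mean of that difference, with mean and SD; the x axis names the gene and its dimmer probe. All Pg means lie below 0, and the Pg arrays lie wholly below the Co arrays for *Prkaa2* and for *Camkk2* 55_P2737194.

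Over all probes tested, dimmer probes were more often lower in Pg mice, and from 12 up 46.7% were below 0. The median Pg minus Co difference of all probes tested was -0.63 for 139 probes with a mean signal under 4, -0.12 from 4 to 6, -0.08 from 6 to 8 and -0.03 from 8 to 10. It was -0.01 from 10 to 12 and 0.01 from 12 up. The upstream *Prkab1* probe, at a mean signal of 6.99, lay below the median of its range. So did the upstream *Prkaa2* probe, at 8.67, and the spliced *Camkk2* probe, at 4.15. The *Prkaa2* probe was chosen for its lower Pg signal, so nothing is read from its place. The same holds for this *Camkk2* probe, which passed the filter only through the Co arrays. In the range from 8 to 10, 6.06% of probes had a q under 0.1 and were lower in Pg mice. This share is not set against the *Prkaa2* probe. The part of signal level in these changes was not tested.

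**Figure D4:**
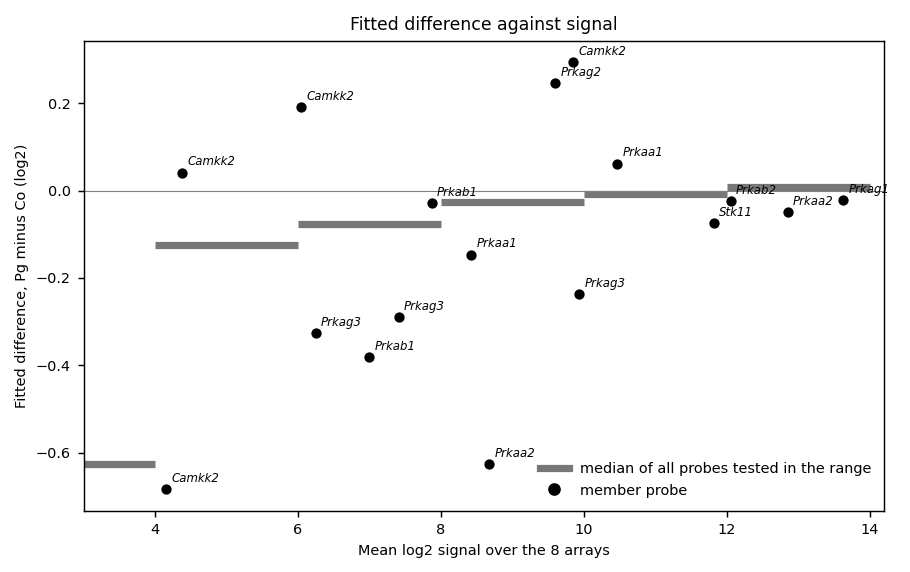
Fitted Pg minus Co difference (log2) of the 17 tested probes against their mean log2 signal over the 8 arrays (points, named by gene), with the median of all probes tested in each range of signal (grey lines; the first range takes all probes under 4 and the last all from 12 up). The medians rise from -0.63 to 0.01, and the lowest follows from the filter, which such dim probes passed mainly through the Co arrays. The *Prkaa2* point at 8.67 chose the family, so nothing is read from its place under the median of its range, -0.03.

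The wider pathway was read through 65 genes in 6 lists, of which 64 were tested, each through its brightest probe. None was a DEG in either direction, where 0.794% of the 20279 genes tested this way were DEGs lower in Pg mice. At a q under 0.1 there were 3 genes lower and 2 higher, which is 7.81% of the 64 and 6.27% of all genes. These calls depended on the fit. With the replicate block 0 probes of the array had a q under 0.1. Without Co replicate 3 only 2 did, both DEGs and neither of them a probe for these genes. Without normalization the number was 29. At an unadjusted p under 0.05 there were 11 of 64 lower, against 12.3% of all genes, and 4 higher, against 8.32%. The median difference was -0.04 for the 64 genes and -0.01 for all genes, with 37 below 0.

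Among the partners of LKB1, which are the pseudokinases and scaffold proteins that activate it, 0 of 4 passed a q of 0.1. The highest was *Strada* (0.07, or 0.04 without Co replicate 3) and the lowest *Stradb* (-0.08, or -0.05 without Co replicate 4). Among 13 other regulators of AMPK, *Map3k7*, the kinase TAK1 that can phosphorylate the α subunit, rose by 0.23 (SE 0.05, adjusted p = 0.0699 from limma). Of its 3 tested probes, 1 was below 0. *Fnip2*, a folliculin partner, had the lowest value (-0.35, adjusted p = 0.142) and *Ppm1e*, a phosphatase of AMPK, the highest (0.24, adjusted p = 0.187). None of the 11 tested AMPK-related kinases under LKB1 passed, with *Mark2* at -0.22 (adjusted p = 0.101) and *Nuak2* at 0.33 (adjusted p = 0.271), or 0.18 without Co replicate 1.

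Among 12 AMPK substrates of lipid and glucose metabolism, *Srebf2*, the transcription factor of cholesterol synthesis, was lower on every Pg array than on any Co array. It was at 10.32, 10.36, 10.16 and 10.20 in Co and 10.02, 9.92, 9.84 and 10.02 in Pg mice. The difference of -0.31 had an SE of 0.07 (adjusted p = 0.0702 from limma). The highest of this list was *Pfkfb2*, a regulator of glycolysis, at 0.21 (adjusted p = 0.478). It was 0.07 without Co replicate 4 and 0.14 without Pg replicate 1.

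Among 13 AMPK substrates of growth, autophagy and mitochondrial fission, 2 fell and 1 rose at a q under 0.1. That is 23.1% of the list against 6.27% of all genes, and 15.4% against 4.15% for those lower. Nothing is read from these shares, as the genes are few. *Foxo3*, a transcription factor of atrophy and stress genes, fell by 0.28 and *Becn1*, which starts autophagosomes, by 0.23 (adjusted p = 0.0636 and 0.0914 from limma). *Hdac7*, a class IIa histone deacetylase, was at 10.41, 10.37, 10.47 and 10.48 in Co and 10.67, 10.85, 10.78 and 10.78 in Pg mice. It rose by 0.34 (SE 0.06, adjusted p = 0.0507 from limma), whereas *Hdac4*, of the same class, was at -0.30 (adjusted p = 0.164). Of 11 transcripts that AMPK activation is known to raise in muscle none passed, with *Ppargc1a*, a coactivator of mitochondrial genes, at -0.36 (95% interval -0.95 to 0.22, adjusted p = 0.431 from limma) and *Esrra*, a nuclear receptor of mitochondrial genes, at 0.08. Without Co replicate 4 these were -0.59 and 0.05.

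When all 141 tested probes of these 64 genes were counted in place of the brightest, 3 met the thresholds of a DEG, all lower in Pg mice, against 1.3% of all probes. They belong to *Tfeb*, *Eef2k* and *Ulk1*, which regulate lysosomes, translation elongation and the start of autophagy. The *Tfeb* probe A_51_P370082 fell by 0.69 (adjusted p = 0.0398 from limma), while the brightest *Tfeb* probe was at -0.20 (adjusted p = 0.142). The *Ulk1* probe A_55_P2736170 fell by 0.67 (adjusted p = 0.0573 from limma), while the brightest was at 0.19 (adjusted p = 0.224). The *Eef2k* probe A_52_P586559 passed the filter through its 4 Co arrays, with 2 Pg arrays well above background, and is given without a test at 5.10 in Co and 4.41 in Pg mice. The brightest *Eef2k* probe was at -0.18 (adjusted p = 0.356). As no brightest probe was a DEG, such calls could come only from the 77 other probes.

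The probes most like *Prkaa2* over the 8 arrays were sought among 27389 probes of named genes. By Pearson's r, the downstream *Prkaa2* probe was closest to *Hrct1* (0.95), *Arhgap5* (0.95), *E4f1* (0.95), *Alg13* (0.94) and *Mtcp1* (0.94). The upstream probe was not searched in this way, since its r over the 8 arrays would mostly follow the difference between the groups by which it was chosen. The 2 *Prkaa2* probes had an r of 0.23 with each other, and of -0.31 within groups. These r values describe 8 arrays that share a slide.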

How the data were processed

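Total RNA of the BAT was labelled with Cy3 and hybridized to Agilent SurePrint G3 mouse arrays, 1 array per sample. Scanner output (Feature Extraction 11.0.1.1, per the submitters' processing notes) was deposited by the authors with intensity values that are background-subtracted but not normalized between arrays, beside a table of their log2 values, normexp-corrected and quantile-normalized. Its log2 fold changes, t, p-values and q-values were not used. A rebuild of it with an offset of 16 was chosen after seeing the data.

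With limma (version 3.58.1) and data.table (version 1.17.8) in R 4.3.3, outlier spots were left out, spots of a probe averaged, and processed intensities quantile-normalized, floored at 1 and log2-transformed. Of 56605 probes, the fit took 33819, those marked well above background on 4 or more of the 8 arrays (lmFit, eBayes, group as the only term, two-sided, Benjamini-Hochberg), a fit tested on simulated data. DEG thresholds (q under 0.1, fold change above 1.5) follow the study's methods. Intervals are at 95%. Precision is limited by the number of arrays. The labels do not say whether RNA was pooled, so p-values measure only the spread between these samples.

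Members and lists were chosen with earlier results of these data known. Named were all members, the genes of each list that were DEGs and its highest and lowest, 5 probes like *Prkaa2*, and 6 markers. The genes with a q under 0.1, the DEGs among dimmer probes, *Elovl3*, *Bmp8b*, *Slc27a2*, *Atp2a1*, *Mb*, *Myh7*, *S100a8*, *S100a9*, *Ngp*, *Kdr*, *Pecam1* and *Tek* were named after their values were seen. The lists of adipocyte, slow-twitch and fast-twitch fibre, macrophage, neutrophil and endothelial genes, planned beside those of brown adipocyte and skeletal muscle genes, had 0 DEGs each by the brightest probe. Comparisons of probes within a gene, by signal level, by position and with *Myh4* were added after seeing the data. Alternatives were other background corrections and normalizations, the authors' log2 table, other filters and floors, outlier spots kept, replicate number as a block, and each array left out.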

Additional observations from a re-analysis of the deposited data

Results flagged for a closer look

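Of 68 sets of 4 arrays of one probe and group, 5 had an array that stood apart by Dixon's test at the 95% level, where chance gives about 1 in 20. In *Prkag2* (A_55_P2013296), replicate 2 stood apart in both groups, at 9.76 in Co mice (others 9.36 to 9.39) and at 9.95 in Pg mice (others 9.62 to 9.66). Co replicate 3 stood apart at 4.16 in the near-background *Camkk2* probe A_55_P2125684 (others 3.18 to 3.29). Pg replicate 4 was at 11.05 in *Strada* (others 10.97 to 10.98). Co replicate 4 was at 11.76 in *Ppargc1a* (others 12.65 to 12.68), which lies inside the range of the Pg arrays.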

How the results depend on the processing

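The number of DEGs among all probes was 546 (440 lower) and became 94 (28 lower) with normexp on the mean signal, 108 (33) with the median signal, 106 (46) in the authors' log2 table, 283 (146) with 75th percentile scaling, 27 (7) without normalization, 372 (290) without a filter, 318 (211) with the filter on all 8 arrays, and 2 to 692 (1 to 512) with an array left out (2 without Co replicate 3, 93 without Co replicate 2). Of the member probes, 2 met the DEG thresholds, both lower, and this count was 0 with normexp, the median signal, the authors' table (12 entries, several of them means of probes) or no normalization, 1 with 75th percentile scaling, no filter, the filter on all 8 arrays or a floor of 16, and 0 to 2 with an array left out (0 without Co replicate 3 or Pg replicate 1). The upstream *Prkaa2* difference was -0.52 with normexp or the median signal, under the fold change of 1.5, and -0.57 without normalization. The pathway lists had 0 lower DEGs by the brightest probe in all fits, and 3 with all tested probes. Replicate numbers did not pair the samples (r of same-numbered deviations 0.06, -0.03, -0.07 and 0.18), and with the replicate block no probe was a DEG (0 of all, 0 of the members; *Prkab1* A_55_P2182700 had an adjusted p of 0.131 from limma). Signs near 0 turned for 4 probes. *Prkab2* was 0.036 with normexp, 0.052 with the median signal and in the authors' table, 0.0017 without normalization, and -0.11 to 0.065 with an array left out. *Prkab1* A_52_P505346 was 0.0047 with normexp, 0.0295 with the median signal, 0.048 without normalization, and -0.064 to 0.014 with an array left out. *Camkk2* A_55_P2730871 ranged from -0.19 to 0.30 and *Prkag1* from -0.055 to 0.0011 with an array left out. The causes were not tested.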
